A study of Mus musculus with 9 samples.

Results

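Transcripts of 10 mouse genes that restrain MAP kinase signalling were followed across 9 livers. They are the MAP kinase phosphatase genes Dusp1, Dusp4, Dusp5, Dusp6, Dusp8, Dusp10 and Dusp16, the Sprouty genes Spry2 and Spry4, and Spred1, a Sprouty relative. They were taken by gene symbol from 24541 symbols in the deposited FPKM values (fragments per kilobase of transcript, scaled to the mapped fragments of each library), and all 10 were among the 12202 genes tested. All livers came from Balb/c mice aged 9 weeks. The LRH1+APAP group (3 livers) received LRH1, the hepatocyte nuclear receptor encoded by Nr5a2, and acetaminophen (APAP). The APAP group (3 livers) received acetaminophen, and the vehicle group (3 livers) received vehicle. The sources used here do not state the dose, route, timing or sex, or how LRH1 was delivered, and livers given LRH1 without acetaminophen were not analysed here. LRH1+APAP and APAP livers differ by LRH1, APAP and vehicle livers by acetaminophen, and LRH1+APAP and vehicle livers by both. The labels give replicate livers and nothing further on their origin, so p-values measure the spread between these livers. With all 9 livers in the fit, that spread was pooled over the 3 groups, so a gene has the same standard error in every comparison. P-values and intervals of LRH1+APAP against vehicle therefore include the spread of APAP livers. Among the groups, APAP livers had the widest spread for each of the 10 genes.

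MAP kinases (ERK, JNK and p38) are switched on by phosphorylation of a threonine and a tyrosine, and the phosphatases of this family remove both phosphates. Several of these phosphatases are themselves induced when the kinases are active, so their messages are often read as feedback. Sprouty and Spred proteins act further up, between growth factor receptors and the RAS to ERK cascade. In liver, acetaminophen injury is known for sustained JNK activity in hepatocytes, and growth factor signalling through ERK is known from liver regeneration.

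Summed FPKM was 520072 to 575365 per library. The 3 APAP livers were less alike than the livers of the other groups: Spearman correlations over the genes tested were 0.989 to 0.991 among LRH1+APAP livers, 0.949 to 0.977 among APAP livers and 0.990 among vehicle livers. APAP liver 1 correlated at 0.974 to 0.980 with the LRH1+APAP livers at 0.976 with APAP liver 3 and at 0.949 with APAP liver 2, so results that rest on single APAP livers are also given without them. The liver label was checked on 5 hepatocyte markers, among them the albumin gene Alb, which summed to between 44500 and 50799 FPKM in LRH1+APAP livers, 41594 and 43084 FPKM in APAP livers, and 52933 and 57186 FPKM in vehicle livers.

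Most of these messages were more abundant in livers given acetaminophen than in vehicle livers. In APAP livers 9 of the 10 genes rose, with Spry4 the exception (adjusted p under 0.05 in limma, over all genes tested). In LRH1+APAP livers 6 rose: Dusp1, Dusp4, Dusp5, Dusp8, Dusp10 and Dusp16. Dusp6, Spry2, Spry4 and Spred1 were not called there. Between LRH1+APAP and APAP livers, 0 of the 10 passed.

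These counts were read against all genes tested, since acetaminophen moved much of the transcriptome. In APAP against vehicle, 47.8% of the genes tested were higher and 15.1% lower, 62.9% in either direction and 66.8% at an unadjusted p under 0.05, with a median log2 difference of 0.25 over all genes and 1.37 over the 10. In LRH1+APAP against vehicle, 39.2% were higher and 8.02% lower, 47.2% in either direction and 55.3% at an unadjusted p under 0.05, with medians of 0.22 over all genes and 1.17 over the 10. In LRH1+APAP against APAP, 7.13% were higher and 5.17% lower, 12.3% in either direction and 32.7% at an unadjusted p under 0.05, and the medians were -0.01 over all genes and -0.33 over the 10. The excess of higher over lower calls against vehicle depended on scaling: 5835 genes higher and 1845 lower in APAP livers became 3810 and 3227 after each library was scaled to a common upper quartile, and 4780 higher and 979 lower in LRH1+APAP livers became 2358 and 2396. Quantile normalization gave 3126 higher and 3699 lower in APAP livers, and 1899 higher and 2624 lower in LRH1+APAP livers. The median of all genes shifted to 0.04 (APAP against vehicle) and 0.02 (LRH1+APAP against vehicle) with upper-quartile scaling, and to -0.04 and -0.06 with quantile normalization. In APAP livers 8 of the 10 genes were called higher with the first scaling and 7 with the second, and in LRH1+APAP livers 6 with the first and 5 with the second. Dusp4, Dusp5 and Dusp8 averaged under 0.5 FPKM in vehicle livers and passed the filter of 0.5 FPKM over all libraries through the treated groups.

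All 3 APAP livers lay above all 3 vehicle livers for 9 of the 10 genes, as they did for 50.5% of the genes tested, with Spry4 the exception. The LRH1+APAP livers lay above the vehicle livers for 7 genes, against 54.6% of all genes, the 6 called there and Dusp6. For Spry2 alone the LRH1+APAP livers lay below every APAP liver, an order that 15.7% of all genes showed.

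**Figure D1:**
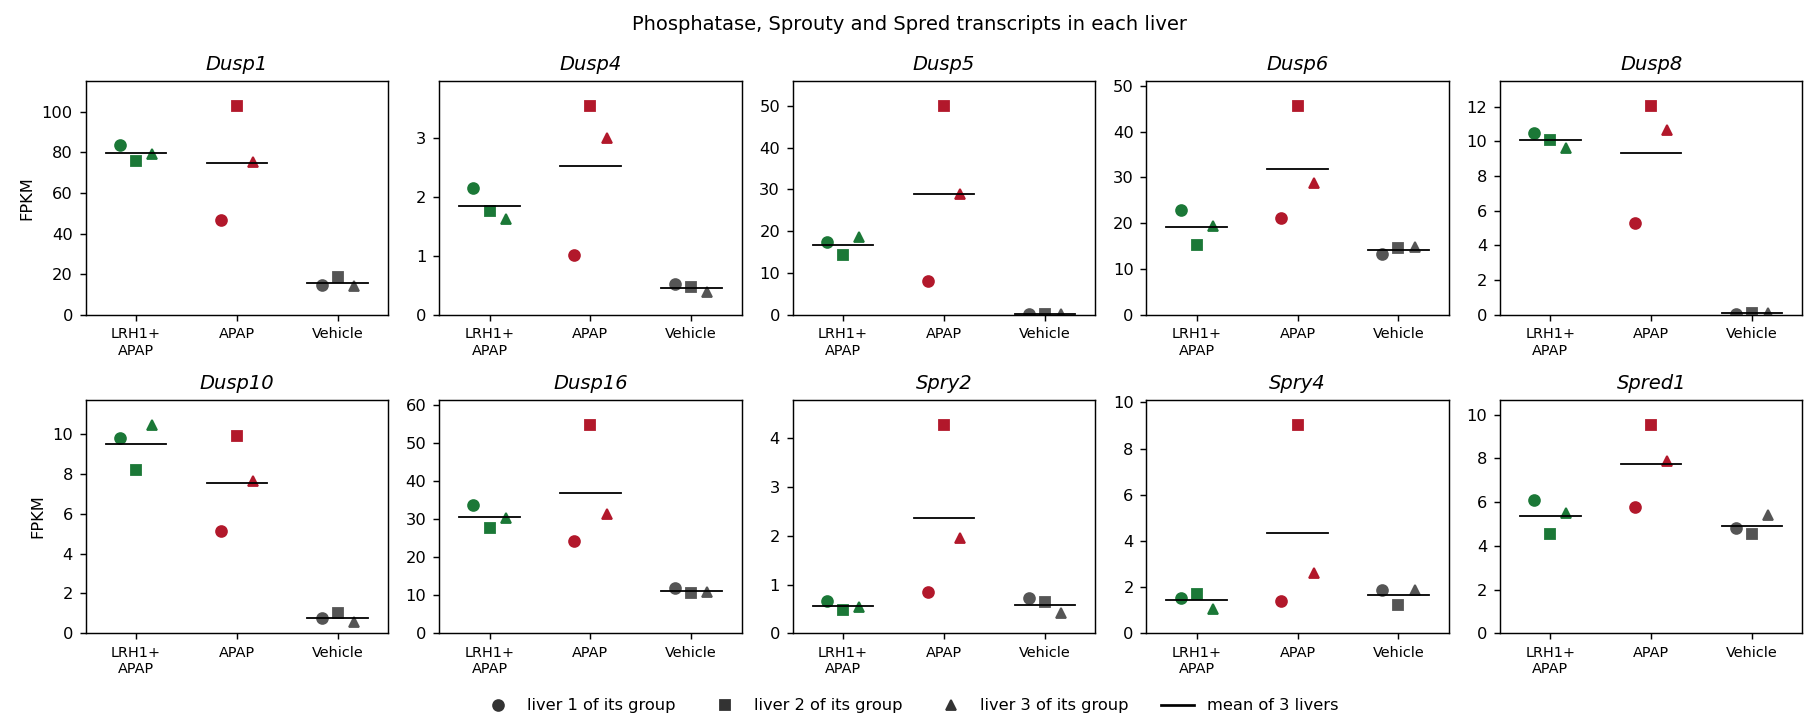
FPKM of each gene (vertical axes, linear from 0) in the LRH1+APAP, APAP and vehicle groups, with 1 symbol per liver and a line at the group mean of 3 livers. APAP liver 2 is the highest and APAP liver 1 the lowest APAP liver in all 10 panels, and the LRH1+APAP livers sit near the vehicle livers for Spry2, Spry4 and Spred1 but far above them for Dusp1, Dusp5, Dusp8 and Dusp10.

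Promoter stretches are shown for Dusp8, Dusp1, Dusp5 and Dusp6, as examples whose upstream bases hold matches to known inducible elements. Upstream bases of Dusp16 and Spred1, not printed, hold some of the same matches. RefSeq promoters (build GRCm38.p6, the assembly that mm10 names) were at hand for 8 of the 10 genes, each 250 bases before to 50 bases after a transcript start. For 6 of them that start lay within 1 base of the model in the deposited values, while the models of Dusp5 and Dusp10 start 174 and 81 bases further downstream. Searched on both strands were the cAMP response element TGACGTCA, its core TGACG, which lies within it, the AP-1 site TGANTCA, the ETS sites CGGAAG and GGAA, of which the first contains the second, and the serum response element. The full cAMP response element was found in 1.79% of 32851 promoters and in 2 of these 8, Dusp8 (2 copies) and Dusp1 (1 copy). The serum response element was found in 1.63% of promoters and in Dusp5 (2 adjoining copies). CGGAAG was found in 16.9% and in Dusp6 and Spred1, TGACG in 20.8% and in Dusp1, Dusp5, Dusp8 and Dusp16, GGAA in 96.0% and in 7 of the 8, and TGANTCA in 7.81% and in 0 of the 8. A match of letters is a description and shows no binding. The stretches below run 5′ to 3′ on the gene's strand, with capitals on the cAMP response elements in Dusp8, on that element and a core in Dusp1, on the serum response elements and a core in Dusp5, and on the ETS site in Dusp6, where the capitals of the Dusp5 core and of the Dusp6 site read as the opposite strand's letters. They cover chr7:142095315-142095434 on the minus strand (Dusp8, -150 to -31 from the start), chr17:26508553-26508672 on the minus strand (Dusp1, -200 to -81), chr19:53528995-53529114 on the plus strand (Dusp5, -150 to -31) and chr10:99263081-99263200 on the plus strand (Dusp6, -150 to -31).
Dusp8: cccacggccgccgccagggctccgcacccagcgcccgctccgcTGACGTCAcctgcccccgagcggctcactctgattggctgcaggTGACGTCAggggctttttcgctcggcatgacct
Dusp1: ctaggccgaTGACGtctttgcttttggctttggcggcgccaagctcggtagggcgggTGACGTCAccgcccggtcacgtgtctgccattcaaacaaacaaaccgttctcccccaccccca
Dusp5: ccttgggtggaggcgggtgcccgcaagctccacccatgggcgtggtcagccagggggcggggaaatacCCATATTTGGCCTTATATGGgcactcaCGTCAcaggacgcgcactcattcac
Dusp6: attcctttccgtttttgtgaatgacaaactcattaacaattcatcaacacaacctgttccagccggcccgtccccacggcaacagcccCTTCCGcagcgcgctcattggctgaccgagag

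Dusp8, Dusp10 and Dusp16 encode phosphatases that act mainly on JNK and p38. Dusp8 (mm10 chromosome 7, 142079488 to 142095284) was listed near 0 in vehicle livers and far above that in both treated groups. It had 10.5, 10.1 and 9.61 FPKM in LRH1+APAP livers 1 to 3, 5.27, 12.0 and 10.6 FPKM in APAP livers 1 to 3, and 0.0704, 0.118 and 0.111 FPKM in vehicle livers 1 to 3. The 3 LRH1+APAP livers lay close together inside the wider APAP range, and every treated liver was far above every vehicle liver. Its log2 difference (of FPKM plus 1, as throughout) from vehicle was 3.33 with LRH1 (standard error 0.23, adjusted p = 2.74e-05) and 3.16 without (standard error 0.23, adjusted p = 3.82e-05), the 43rd and 63rd highest of the genes tested. Adding 1 to values this low understates the change, and the ratios of mean FPKM were 101 and 93.3, both against a vehicle mean of 0.0998 FPKM. With a pseudocount of 0.1 the log2 differences were 5.68 with LRH1 and 5.48 without.

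Dusp10 (chromosome 1, 184034462 to 184075636) rose in both treated groups as well. Its values were 9.83, 8.18 and 10.5 FPKM in LRH1+APAP livers, 5.13, 9.91 and 7.65 FPKM in APAP livers, and 0.794, 1.01 and 0.580 FPKM in vehicle livers. Treated and vehicle livers did not overlap, and the treated groups did. The log2 difference from vehicle was 2.55 with LRH1 (standard error 0.20, adjusted p = 4.94e-05) and 2.22 without (standard error 0.20, adjusted p = 9.09e-05).

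Dusp16 (chromosome 6, 134715469 to 134792628) was already well expressed in vehicle livers. It stood at 33.8, 27.5 and 30.2 FPKM in LRH1+APAP livers, 24.1, 54.7 and 31.2 FPKM in APAP livers, and 11.9, 10.6 and 10.9 FPKM in vehicle livers. Both treated groups were above vehicle without overlap, with APAP liver 2 apart from the rest. The log2 difference from vehicle was 1.37 with LRH1 (standard error 0.24, adjusted p = 0.00279) and 1.56 without (standard error 0.24, adjusted p = 0.000898). Of its 2 transcript models, the longer one (5105 bases) carried 91.5% of the summed FPKM in LRH1+APAP livers, 91.3% in APAP livers and 96.1% in vehicle livers. The shorter one (4139 bases) averaged 2.60 FPKM in LRH1+APAP livers, 3.20 FPKM in APAP livers and 0.435 FPKM in vehicle livers, where liver 3 was listed at 0.

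Dusp1, Dusp4 and Dusp5 encode phosphatases of the nucleus: Dusp1 acts on p38, JNK and ERK, Dusp4 on ERK and JNK, and Dusp5 on ERK. Dusp1 (chromosome 17, 26505592 to 26508472), an immediate early gene, had the highest FPKM of the set in every treated liver. It had 83.4, 75.8 and 79.2 FPKM in LRH1+APAP livers, 46.9, 103 and 75.0 FPKM in APAP livers, and 14.6, 18.8 and 14.2 FPKM in vehicle livers. The LRH1+APAP livers lay within the APAP range, and no treated liver came near vehicle. The log2 difference from vehicle was 2.27 with LRH1 (standard error 0.24, adjusted p = 0.000254) and 2.11 without (standard error 0.24, adjusted p = 0.000230).

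Dusp5 (chromosome 19, 53529319 to 53541322) had the largest difference of the 10 on the log scale, and the largest SD among APAP livers on that scale. It had 17.4, 14.3 and 18.6 FPKM in LRH1+APAP livers, 8.19, 49.9 and 28.8 FPKM in APAP livers, and 0.166, 0.231 and 0.203 FPKM in vehicle livers. APAP liver 1 was the lowest treated liver and still far above vehicle, and the LRH1+APAP livers lay between APAP livers 1 and 3. The log2 difference from vehicle was 3.88 with LRH1 (standard error 0.50, adjusted p = 0.000635) and 4.33 without (standard error 0.50, adjusted p = 0.000242), the 31st and 27th highest of the genes tested. Its promoter is the 1 of the 8 with serum response elements, printed above.

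Dusp4 (chromosome 8, 34807611 to 34819894) stayed low in every group. It was listed at 2.15, 1.76 and 1.63 FPKM in LRH1+APAP livers, 1.01, 3.54 and 3.00 FPKM in APAP livers, and 0.516, 0.469 and 0.388 FPKM in vehicle livers. The treated groups overlapped each other and neither overlapped vehicle. The log2 difference from vehicle was 0.96 with LRH1 (standard error 0.26, adjusted p = 0.0169) and 1.19 without (standard error 0.26, adjusted p = 0.00435), and with a pseudocount of 0.1 they were 1.80 and 2.06. The call with LRH1 was lost after quantile normalization (adjusted p = 0.0519), without vehicle liver 3 (adjusted p = 0.0530) and without LRH1+APAP liver 1 (adjusted p = 0.0546), in a range of 0.000139 to 0.0546 over its alternatives.

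Dusp6 encodes the cytoplasmic phosphatase that acts on ERK with high selectivity, and its message is widely used as a readout of ERK activity. It (chromosome 10, 99263232 to 99267489) had 22.8, 15.2 and 19.3 FPKM in LRH1+APAP livers, 21.2, 45.6 and 28.8 FPKM in APAP livers, and 13.3, 14.5 and 14.8 FPKM in vehicle livers. APAP livers lay above vehicle, while LRH1+APAP liver 2 was almost level with vehicle liver 3. Dusp6 rose in APAP livers (log2 difference 1.05, standard error 0.24, adjusted p = 0.00561). In LRH1+APAP livers the difference from vehicle was 0.39 with a 95% interval of -0.17 to 0.94 (adjusted p = 0.217), and it passed with the 6 libraries of those 2 groups in the fit (adjusted p = 0.0367, in a range of 0.0367 to 0.716 over its alternatives).

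Spry2, Spry4 and Spred1 encode inhibitors of growth factor signalling to ERK: Sprouty proteins are themselves induced by ERK activity, and Spred1 brings neurofibromin to RAS. Spry2 (chromosome 14, 105891948 to 105896819) had 0.673, 0.478 and 0.548 FPKM in LRH1+APAP livers, 0.855, 4.28 and 1.95 FPKM in APAP livers, and 0.725, 0.636 and 0.410 FPKM in vehicle livers. The LRH1+APAP livers lay inside the vehicle range, and the APAP livers lay above both, liver 1 only just. Spry2 rose in APAP livers (log2 difference 0.95, standard error 0.31, adjusted p = 0.0248), while the difference of LRH1+APAP from vehicle was -0.02 with a 95% interval of -0.72 to 0.69 (adjusted p = 0.966). The width of that interval also reflects APAP livers. On the log2 scale the SD was 0.76 among APAP livers, 0.09 among LRH1+APAP livers and 0.15 among vehicle livers. The APAP call was lost in 5 alternatives: with 6 libraries in the fit, after quantile normalization (adjusted p = 0.0919), and without vehicle liver 2, vehicle liver 3 or APAP liver 3, where the adjusted p reached 0.0756, in a range of 0.000936 to 0.0919 over its alternatives. With a pseudocount of 0.1 its log2 difference was 1.598 in APAP against vehicle and -1.63 in LRH1+APAP against APAP, and the calls were the same.

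Spry4 (chromosome 18, 38586266 to 38601268) was high in 1 liver. Its values were 1.52, 1.70 and 1.06 FPKM in LRH1+APAP livers, 1.41, 9.04 and 2.62 FPKM in APAP livers, and 1.86, 1.23 and 1.89 FPKM in vehicle livers. APAP liver 2 was far above all others, and APAP liver 1 lay inside the vehicle range. The log2 difference of APAP from vehicle was 0.75 with a 95% interval of -0.24 to 1.74 (adjusted p = 0.161). It was 0.16 without APAP liver 2 (adjusted p = 0.520) and 1.19 without APAP liver 1 (adjusted p = 0.0198), the only alternative in which it passed. With LRH1 the difference from vehicle was -0.13 with a 95% interval of -1.12 to 0.86 (adjusted p = 0.817).

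Spred1 (chromosome 2, 117121072 to 117182277) had a smaller range. It had 6.08, 4.52 and 5.50 FPKM in LRH1+APAP livers, 5.79, 9.54 and 7.87 FPKM in APAP livers, and 4.79, 4.54 and 5.39 FPKM in vehicle livers. All APAP livers were above vehicle, liver 1 by a small margin, and the LRH1+APAP livers straddled the vehicle range. Spred1 rose in APAP livers (log2 difference 0.54, standard error 0.16, adjusted p = 0.0165), a call lost after upper-quartile scaling (log2 difference 0.31, adjusted p = 0.0996), after quantile normalization (adjusted p = 0.214), without vehicle liver 2 and without APAP liver 3. With LRH1 the difference from vehicle was 0.10 with a 95% interval of -0.26 to 0.47 (adjusted p = 0.618), and it turned to -0.12 after upper-quartile scaling. The longer of its 2 transcript models (6310 bases) carried 97.3% of the FPKM in LRH1+APAP livers, 96.4% in APAP livers and 98.1% in vehicle livers.

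**Figure D2:**
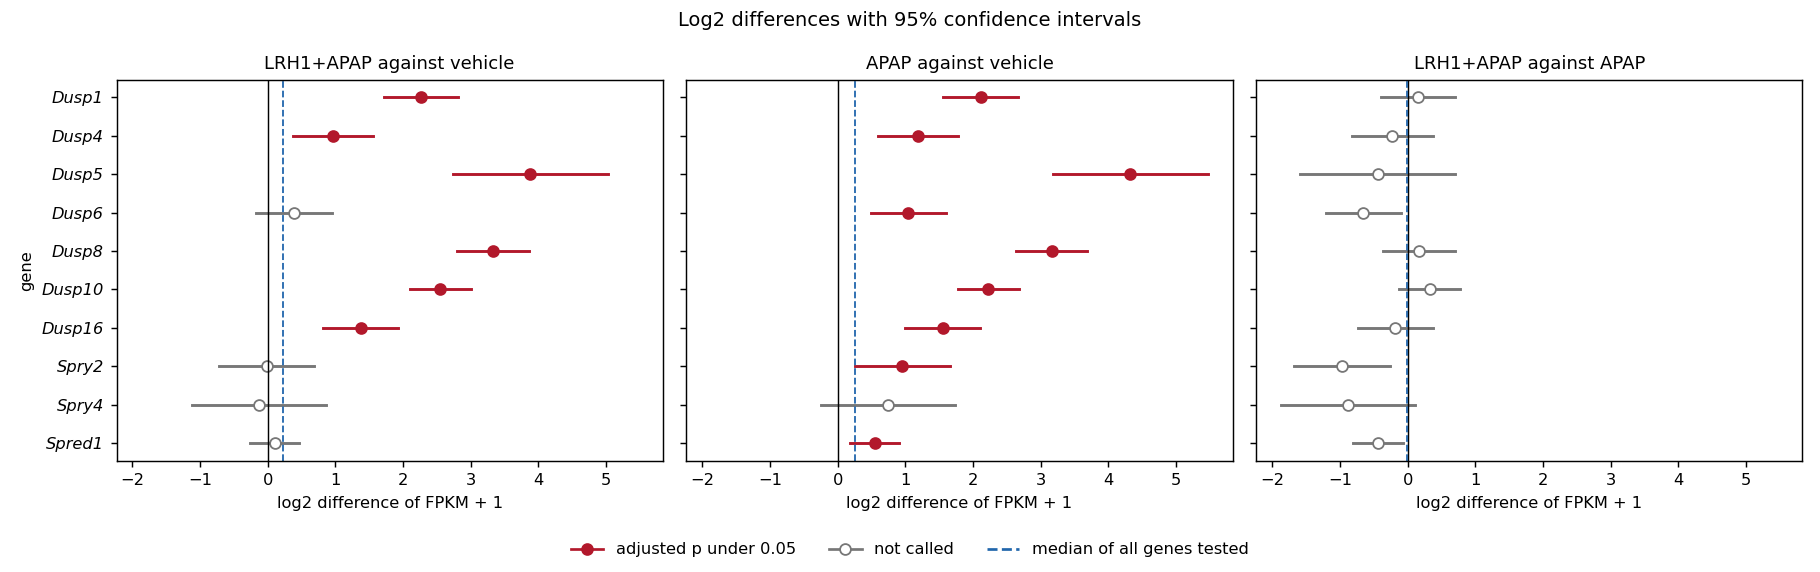
Log2 difference of FPKM plus 1 (horizontal axis) for each gene (rows) in LRH1+APAP against vehicle, APAP against vehicle and LRH1+APAP against APAP, with points at the estimate, lines over the 95% interval and a dashed line at the median of all genes tested. Filled points passed at an adjusted p under 0.05: 6 genes in the first panel, 9 in the second and 0 in the third.

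The question of what LRH1 added to acetaminophen rests on LRH1+APAP against APAP. None of the 10 genes passed, and 3 had an unadjusted p under 0.05 in limma: Spry2, Spred1 and Dusp6, all lower with LRH1. That count is near the background, since 32.7% of all genes tested had an unadjusted p under 0.05 here. Spry2 averaged 0.566 ± 0.0987 FPKM in LRH1+APAP livers and 2.36 ± 1.75 FPKM in APAP livers (SD, n = 3 each), a log2 difference of -0.97 with a 95% interval of -1.68 to -0.27 (adjusted p = 0.0704). Spry4 stood at -0.88 with a 95% interval of -1.87 to 0.11 (adjusted p = 0.192), Dusp6 at -0.66 with a 95% interval of -1.21 to -0.10 (adjusted p = 0.104), and Spred1 at -0.44 with a 95% interval of -0.81 to -0.08 (adjusted p = 0.0997). In the order of all 12202 genes by this difference, 1.66% lay below Spry2, 2.07% below Spry4, 3.92% below Dusp6 and 8.31% below Spred1. Of the genes directed at JNK and p38, and Dusp1, none passed: Dusp10 stood at 0.33 with a 95% interval of -0.12 to 0.78 (adjusted p = 0.279), Dusp8 at 0.17 with an interval of -0.36 to 0.70, Dusp1 at 0.15 with an interval of -0.39 to 0.70, and Dusp16 at -0.18 with an interval of -0.74 to 0.37. Missing the threshold does not show that these levels were equal. Dusp5 stood at -0.45, with the widest interval of the set, -1.59 to 0.70, and Dusp4 at -0.22 with an interval of -0.82 to 0.37. This comparison shares its APAP livers with APAP against vehicle, so a high APAP liver raises a gene in one and lowers it in the other.

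These calls depended on APAP liver 1. It was the lowest APAP liver for all 10 genes, so leaving it out must lower every difference. Without APAP liver 1, 6 of the 10 genes were called lower in LRH1+APAP against APAP: Spry2 (log2 difference -1.34, adjusted p = 0.00333), Spry4 (-1.32, adjusted p = 0.0250), Dusp5 (-1.14, adjusted p = 0.00473), Dusp6 (-0.91, adjusted p = 0.0114), Spred1 (-0.61, adjusted p = 0.00820) and Dusp4 (-0.59, adjusted p = 0.00462). The count over all genes went up with them, to 2031 higher and 2607 lower of 12202, against 870 and 631 with all 9 livers. Without APAP liver 2, 0 of the 10 passed, Spry2 stood at -0.58 (adjusted p = 0.0928) and Spry4 at -0.29 (adjusted p = 0.385). Dusp10 was above 0 in all of these fits, from 0.11 without APAP liver 1 to 0.52 without APAP liver 2.

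**Figure D3:**
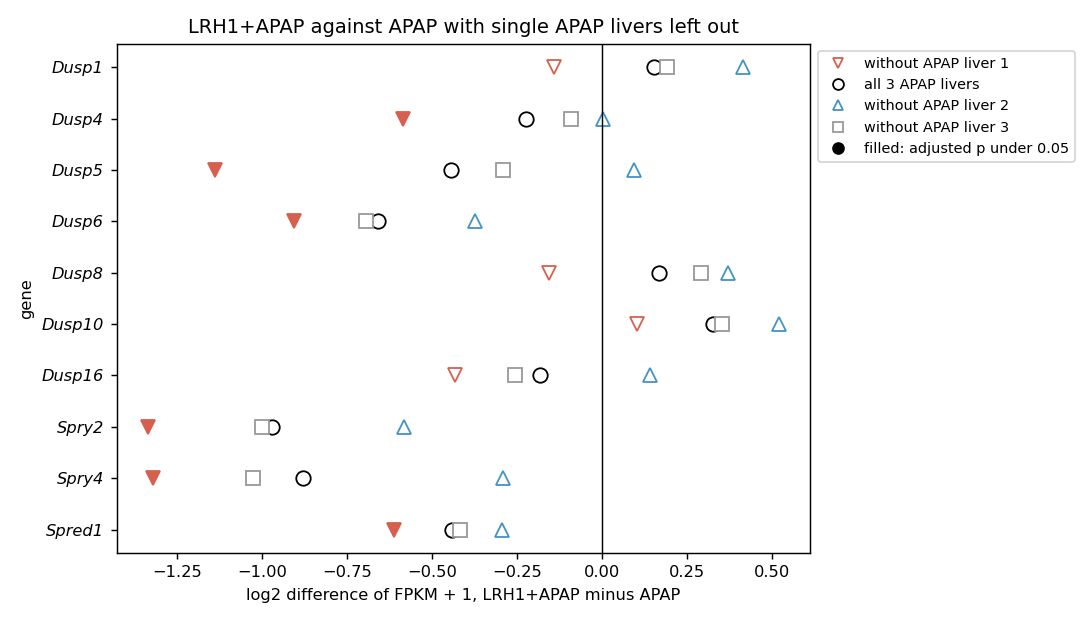
Log2 difference of FPKM plus 1, LRH1+APAP minus APAP (horizontal axis), for each gene (rows), with all 3 APAP livers and with APAP liver 1, 2 or 3 left out of the fit. Filled symbols passed at an adjusted p under 0.05, which 6 genes did without APAP liver 1 and 0 did in the other fits drawn.

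Among APAP livers the 10 genes kept a single order. In each of them APAP liver 2 was the highest and APAP liver 1 the lowest, an order that 33.8% of all genes tested had, and 54.0% of the genes called higher in APAP livers. The highest APAP liver was 6.43 times the lowest for Spry4, 6.10 times for Dusp5, 5.01 times for Spry2, and 1.65 times for Spred1, the smallest such ratio of the set. On the log2 scale the SD among APAP livers was 1.26 for Dusp5 and 1.06 for Spry4, larger than that of 99.5% and 99.0% of the genes tested. LRH1+APAP livers were closer together, with a highest to lowest ratio of 1.09 for Dusp8 and 1.10 for Dusp1, up to 1.61 for Spry4. In vehicle livers the same ratio ran from 1.11 for Dusp6 to 1.77 for Spry2.

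**Figure D4:**
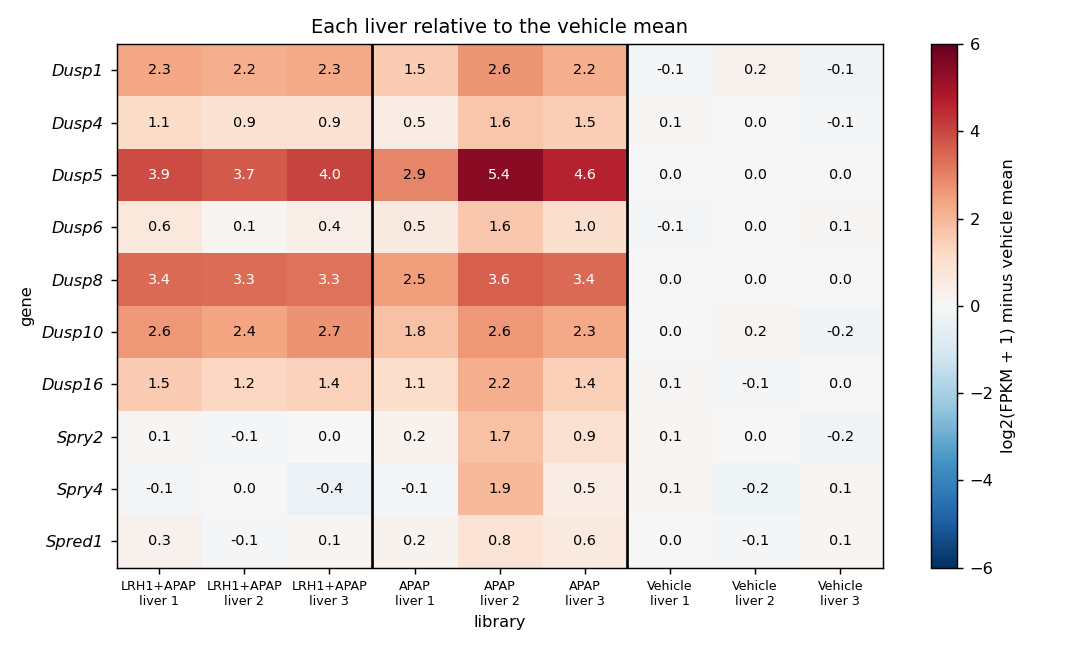
Log2 of FPKM plus 1 in each liver (columns: LRH1+APAP, APAP and vehicle livers 1 to 3) minus the vehicle mean of that gene (rows), with red above and blue below vehicle and the value written in each cell. Dusp5 and Dusp8 are the darkest rows in all 6 treated livers, and Spry2, Spry4 and Spred1 are highest in APAP livers 2 and 3.

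Across the 9 livers, which fall into 3 groups and share those groups' differences, correlations are given as a description. The 6 genes called in both treated groups correlated with each other at 0.89 to 0.99 (Pearson's r of the log2 values, 15 pairs). Dusp6, Spry2, Spry4 and Spred1 correlated with each other at 0.79 to 0.97 (6 pairs), and the 24 pairs between the sets ran from 0.26 (Dusp10 with Spry4) to 0.86 (Dusp4 with Dusp6). The sets were formed from calls in these same livers, so higher correlations within than between them are partly built in. The genes most like Dusp1 over these libraries were Dnajc5, a co-chaperone, Txn1, thioredoxin, and Fam83g, at r = 0.999, 0.998 and 0.997. Txn1 had 204, 201 and 206 FPKM in LRH1+APAP livers, 190, 217 and 203 FPKM in APAP livers, and 153, 160 and 150 FPKM in vehicle livers. Those most like Dusp6 were Hmga2-ps1, Sema4c, a semaphorin, and Inhbb, an activin subunit, at 0.98 each. Inhbb had 2.86, 1.55 and 1.75 FPKM in LRH1+APAP livers, 3.50, 21.6 and 8.45 FPKM in APAP livers, and 0.528, 0.724 and 1.56 FPKM in vehicle livers. Nearest to Spry4 were Mt4, Tmem63a and Cp, the plasma protein ceruloplasmin, at 0.97, 0.97 and 0.96. Mt4, a metallothionein, was listed at 0 in 7 of the livers, with 4.67 FPKM in APAP liver 2 and 0.694 FPKM in APAP liver 3.

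Relatives of the 10 genes were counted from a separate list. Of 11 other phosphatase genes, 5 were tested, and in APAP against vehicle, where 47.8% of all genes were higher, 3 rose: Dusp3 (log2 difference 0.83, adjusted p = 0.000493), Dusp14 (1.35, adjusted p = 0.00175) and Dusp7 (0.48, adjusted p = 0.00171). Dusp14 averaged 0.160 FPKM in vehicle livers, 2.09 FPKM in APAP livers and 1.93 FPKM in LRH1+APAP livers. It passed the filter through the treated groups, so its place in these counts is partly set by the filter. Dusp3, a small phosphatase of ERK and JNK, had 13.6, 12.4 and 13.4 FPKM in LRH1+APAP livers, 15.6, 21.3 and 19.1 FPKM in APAP livers, and 9.61, 11.1 and 9.38 FPKM in vehicle livers. It was the 1 gene of this list that differed between LRH1+APAP and APAP livers (log2 difference -0.47, adjusted p = 0.0340), and the groups did not overlap. Of all genes tested, 5.17% were lower in that comparison, and 15.7% had all LRH1+APAP livers below all APAP livers. Of 7 further inhibitors of RAS signalling, 5 were tested and 2 rose in APAP livers, Nf1, which encodes neurofibromin (0.42, adjusted p = 0.00139), and Spry1 (0.95, adjusted p = 0.00813). That count was near the 47.8% of all genes that were higher. Spry1 stood at -0.63 in LRH1+APAP against APAP (adjusted p = 0.111), and 0 of those 5 passed there, where 12.3% of all genes did. In LRH1+APAP against vehicle, where 39.2% of all genes were higher, Dusp3 and Dusp14 rose among the 5 tested of the first list. Nf1 rose among the 5 of the second. The count of the first list was near that share of all genes.

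Growth factor ligands lie upstream. Of 12 ligands, 8 were tested. In APAP against vehicle 7 rose and 1 fell, in LRH1+APAP against APAP 1 rose and 2 fell, and in LRH1+APAP against vehicle 3 rose and 1 fell. Of all genes tested, 47.8% were higher in APAP against vehicle. In LRH1+APAP against vehicle 39.2% were higher, near the 3 of 8 ligands. In LRH1+APAP against APAP, 7.13% were higher and 5.17% lower. Areg, Ereg, Hbegf and Btc averaged under 0.5 FPKM in vehicle livers and passed the filter through the treated groups, so the count of ligands that rose is partly set by the filter. Ereg, which encodes the EGF receptor ligand epiregulin, had 0.167, 0.148 and 0.142 FPKM in LRH1+APAP livers, 0.754, 6.71 and 3.13 FPKM in APAP livers, and 0.0244, 0.0673 and 0.0227 FPKM in vehicle livers. It fell in LRH1+APAP against APAP (log2 difference -1.73, adjusted p = 0.0342), as did Fgf21, a stress hormone of hepatocytes (-1.59, adjusted p = 0.0331). Areg, the amphiregulin gene, was listed at 1.87, 1.30 and 1.69 FPKM in LRH1+APAP livers, 1.90, 6.81 and 2.39 FPKM in APAP livers, and 0 in every vehicle liver. Btc, the betacellulin gene, rose in both treated groups, by 2.41 with LRH1 and 2.40 without (adjusted p = 0.00146 and 0.000839). Fgf1 went the other way, with 26.4, 25.4 and 23.0 FPKM in LRH1+APAP livers, 19.1, 13.6 and 14.9 FPKM in APAP livers, and 68.8, 71.2 and 70.3 FPKM in vehicle livers.

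Receptors were mixed. Of 11 tested receptor genes, 6 rose and 3 fell in APAP against vehicle, 3 rose and 2 fell in LRH1+APAP against APAP, and 3 rose and 2 fell in LRH1+APAP against vehicle. The share that rose in APAP livers was near the 47.8% of all genes. Igf1r, among those that rose there, averaged 0.280 FPKM in vehicle livers and 0.418 FPKM in LRH1+APAP livers. It passed the filter through the APAP livers, at 0.816 FPKM, so the count is partly set by the filter. Of all genes, 39.2% were higher in LRH1+APAP against vehicle and 7.13% in LRH1+APAP against APAP. Met, the receptor of hepatocyte growth factor, had 19.0, 17.5 and 19.9 FPKM in LRH1+APAP livers, 13.1, 13.0 and 12.5 FPKM in APAP livers, and 17.3, 14.5 and 13.9 FPKM in vehicle livers (log2 difference from APAP 0.51, adjusted p = 0.0142). Erbb3 and Insr, which encode a neuregulin receptor and the insulin receptor, were higher in LRH1+APAP than in APAP livers by 0.67 and 0.28 (adjusted p = 0.0144 and 0.0478), while Fgfr2 was lower (log2 difference -0.94, adjusted p = 0.0205).

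The kinases themselves had a median log2 difference in APAP against vehicle of 0.39 for the RAS to ERK cascade and 0.47 for the p38 and JNK cascades, against 0.25 over all genes. Of 19 genes of the RAS to ERK cascade, 14 rose and 1 fell in APAP against vehicle, 1 rose and 1 fell in LRH1+APAP against APAP, and 8 rose in LRH1+APAP against vehicle. Of all genes tested, 47.8% were higher in APAP against vehicle. In LRH1+APAP against vehicle 39.2% were higher, near the 8 of 19. These lists were not recounted after other scalings. Hras, which encodes a RAS protein, was the 1 that fell in LRH1+APAP against APAP (log2 difference -0.24, adjusted p = 0.0365), with values between 13.8 and 14.6 FPKM in LRH1+APAP livers, 16.5 and 17.6 FPKM in APAP livers, and 12.4 and 13.0 FPKM in vehicle livers. Of 16 tested genes of the p38 and JNK cascades, 9 rose and 2 fell in APAP against vehicle, 2 rose and 2 fell in LRH1+APAP against APAP, and 9 rose and 2 fell in LRH1+APAP against vehicle. For these p38 and JNK genes, the shares in APAP against vehicle were near the 47.8% of all genes that were higher and the 15.1% that were lower. Ksr1 of the RAS to ERK list, and Mapk11 and Mapkapk3 of the p38 and JNK list, rose in APAP livers. They averaged under 0.5 FPKM in vehicle livers and passed the filter through the treated groups, so both counts are partly set by the filter. Map2k6, which encodes a kinase that activates p38, had 1.90, 4.57 and 2.54 FPKM in LRH1+APAP livers, 0.866, 0.233 and 0.446 FPKM in APAP livers, and 6.76, 5.52 and 5.67 FPKM in vehicle livers. It was 1.37 higher on the log2 scale in LRH1+APAP than in APAP livers (adjusted p = 0.0134).

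The last list held genes known to respond to ERK activity. Of 11 tested, 11 rose in APAP against vehicle and 8 in LRH1+APAP against vehicle, with 1 that rose and 1 that fell in LRH1+APAP against APAP. Of all genes tested, 47.8% were higher in APAP against vehicle and 39.2% in LRH1+APAP against vehicle. In LRH1+APAP against APAP, 7.13% were higher and 5.17% lower. Fosl1, Egr2 and Ier3 averaged under 0.5 FPKM in vehicle livers and passed the filter through the treated groups, while Egr3, Etv4 and Epha4 did not pass it, so the filter favoured genes that rose. The 1 that fell with LRH1 was Egr1, an immediate early transcription factor, with 539, 345 and 359 FPKM in LRH1+APAP livers, 603, 642 and 600 FPKM in APAP livers, and 0.959, 0.926 and 0.728 FPKM in vehicle livers (log2 difference from APAP -0.60, adjusted p = 0.0402). The 1 that rose was Ccnd1, which encodes cyclin D1, with 22.1, 32.0 and 22.5 FPKM in LRH1+APAP livers, 10.4, 6.48 and 16.6 FPKM in APAP livers, and 2.00, 1.68 and 1.64 FPKM in vehicle livers (log2 difference from APAP 1.19, adjusted p = 0.0303). Ier2, another immediate early gene, had 158, 133 and 125 FPKM in LRH1+APAP livers, 101, 161 and 117 FPKM in APAP livers, and 9.99, 8.53 and 10.6 FPKM in vehicle livers, and its log2 difference of LRH1+APAP from APAP was 0.15 (adjusted p = 0.554).

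Markers of other cell types moved between the groups as well, and in whole tissue fewer cells of a type and less RNA per cell cannot be told apart. The 7 neutrophil markers summed to 5.39 to 6.34 FPKM in LRH1+APAP livers, to 30.0, 457 and 45.9 FPKM in APAP livers 1 to 3, and to 1.62 to 2.67 FPKM in vehicle livers. S100a8 and S100a9 rose in APAP against vehicle and fell in LRH1+APAP against APAP. Csf3r and Retnlg averaged under 0.5 FPKM in vehicle livers and passed the filter through the APAP livers, and Ly6g, Mpo and Elane did not pass it. The granule genes Mpo and Elane were at most 0.141 FPKM in any liver, with Mpo listed at 0 in every LRH1+APAP and vehicle liver. The 8 Kupffer cell and macrophage markers summed to between 245 and 271 FPKM in LRH1+APAP livers, 169 and 278 FPKM in APAP livers, and 100.1 and 115 FPKM in vehicle livers. Of these sums, Lyz2 alone had 140, 152 and 123 FPKM in LRH1+APAP livers and 52.6, 55.5 and 139 FPKM in APAP livers. In LRH1+APAP against APAP, 0 of the 8 were called higher and 2 lower, where 5.17% of all genes were lower. These were Clec4f (log2 difference -0.37, adjusted p = 0.0361) and Marco (-1.16, adjusted p = 0.0226). Endothelial markers (6 genes) lay between 106 and 112 FPKM in LRH1+APAP livers, 132 and 180 FPKM in APAP livers, and 85.2 and 100.4 FPKM in vehicle livers. Stellate cell and fibroblast markers (6 genes) lay between 188 and 195 FPKM in LRH1+APAP livers, 170.4 and 229 FPKM in APAP livers, and 72.7 and 127 FPKM in vehicle livers. Cholangiocyte markers (4 genes) lay between 5.80 and 7.72 FPKM in LRH1+APAP livers, 4.39 and 9.30 FPKM in APAP livers, and 0.849 and 2.02 FPKM in vehicle livers. Lymphocyte markers (6 genes) lay between 4.03 and 7.33 FPKM in LRH1+APAP livers, 2.70 and 5.25 FPKM in APAP livers, and 0.432 and 0.812 FPKM in vehicle livers. Erythroid markers (4 genes) lay between 337 and 845 FPKM in LRH1+APAP livers, 804 and 2548 FPKM in APAP livers, and 243 and 409 FPKM in vehicle livers. By these sums APAP liver 2, the highest of the APAP livers for all 10 genes, was also the highest for neutrophil, erythroid and cholangiocyte markers. Liver 3 had the highest sums of macrophage and stellate cell markers, and liver 1 that of lymphocyte markers. Single markers did not all follow their sum. Epcam and Cd3e were highest in APAP liver 3, Krt19 and Alas2 in liver 1, and Cd68 and Marco in liver 2. The part of these cells in the levels of the phosphatase and Sprouty genes was not tested.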

How the data were processed

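RNA-seq was made from 9 livers, 3 per group, with 1 library each. The authors deposited FPKM per RefSeq transcript model on build mm10, per the file headers, and StringTie 1.3.3b, Bowtie2 2.2.6 and FastQC 0.10.0 are named, with no role given, per the submitters' processing notes. No scaling between libraries is stated, and 0 value columns lacked a sample. Reads per library are unknown. At the best-fitting step, 40.7% to 49.0% of low values in genes with 1 model fell within 0.05 of whole reads. The share to be met without such steps was not computed. The remaining values fell outside, so read numbers were not recovered, and the spread between livers gives the precision.

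FPKM was summed per gene symbol, and genes whose mean reached 0.5 FPKM across libraries entered as log2(FPKM + 1) in one limma 3.58.1 model (R 4.3.3, package data.table, version 1.17.8) with group means, an intensity trend and 6 residual degrees of freedom. Tests were two-sided with Benjamini-Hochberg adjustment over 12202 genes, called at an adjusted p under 0.05. The scripts were checked on simulated data. Promoters were searched in Python 3.11.15 with pandas 2.3.3, and figures drawn with matplotlib 3.10.9.

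The 10 genes, the gene lists and the rule for other named genes (the 3 of smallest p per list in APAP against vehicle and in LRH1+APAP against APAP, and the 3 genes most correlated with Dusp1, Dusp6 and Spry4) were chosen with earlier results of these data known. Alternatives covered the pseudocount, the filter, scaling, the libraries in the fit, the trend, transcript models, single livers and a block for the liver number. Protein sequences were not analysed here, and 1 gene that the rule takes is not reported here.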

Additional observations from a re-analysis of the deposited data

How the results depend on the processing

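Each log2 difference of the 10 genes was recomputed under up to 20 alternatives. In APAP against vehicle 187 of 197 kept direction and side of the threshold, in LRH1+APAP against APAP 186 of 197, and in LRH1+APAP against vehicle 188 of 197. Dusp4, Spry2 and Spry4 averaged under 5 FPKM and have no value under that filter. Directions that turned were small: without single livers, LRH1+APAP against APAP ran from -0.14 to 0.42 for Dusp1, -0.16 to 0.37 for Dusp8, -0.43 to 0.14 for Dusp16, -0.59 to 0.0021 for Dusp4 and -1.14 to 0.095 for Dusp5, and LRH1+APAP against vehicle ran from -0.10 to 0.043 for Spry2. Spred1 in that last comparison turned to -0.12 after upper-quartile scaling and -0.22 after quantile normalization. Of the 10 genes, 7 to 10 were called without single livers in APAP against vehicle, 5 to 6 in LRH1+APAP against vehicle, and 0 to 6 in LRH1+APAP against APAP, where all 6 needed the omission of APAP liver 1.

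Over all genes, a filter of at least 5 FPKM left 4746 calls in APAP against vehicle and 3671 in LRH1+APAP against vehicle, against 7680 and 5759, because 7006 genes were tested. LRH1+APAP against APAP was the least stable count: 1501 with all 9 livers, 263 with 6 libraries in the fit, and 211 to 4638 without single livers (876, 823 and 986 without vehicle livers 1 to 3, 4638, 974 and 474 without APAP livers 1 to 3, 531, 279 and 211 without LRH1+APAP livers 1 to 3). The cause was not tested. With the liver number as a replicate block it was 807, while the block changed 0 calls among the 10 genes. Livers share only a number: the correlation of same-numbered livers' deviations from their group means ran from -0.14 to 0.07, so the block is no evidence of a weaker effect. Unknown read depth limits what can be said of values under about 1 FPKM.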
